A study of Mus musculus with 25 samples.

Results

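Hepatocytes of untreated mice carrying the transgenes ApoE-rtTA and TRE-hYAP, called ApoYap ctrl, were compared with hepatocytes of untreated C57BL/6 mice, called BL/6 ctrl. The comparison uses 8 of the 25 libraries of the series, 4 in each group, chosen by the group in the labels. All 12970 genes that passed a filter on low counts, of 37117 gene symbols, were tested. The study as a whole asked how adult hepatocytes respond when YAP is made hyperactive, and these are among its untreated references. In the ApoYap design, rtTA is a transcriptional activator that works only in the presence of doxycycline, and hYAP is human YAP placed behind a TRE promoter that rtTA turns on. ApoYap ctrl received no doxycycline, and the labels give both groups an effective genotype of WT. The question of the comparison is which genes differ between the carrier and the wild-type strain before any induction.

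Both groups went through the same preparation: livers were perfused and digested with collagenase, and RNA was taken from 500000 sorted cells of each sample. Another untreated group, mice with floxed Lats1 and Lats2 and no Cre (Lats1/2 flox ctrl, 4 libraries, effective genotype WT), is set beside them as a further reference. Sex, age, litter, housing, the strain background of the ApoYap line and the day of preparation are not given in the labels. Sex can be read from the RNA, as described below. The transgenes, the genetic background and any other such difference between the groups cannot be told apart. The labels also do not say that the 4 libraries of a group came from separate animals, so p-values measure the spread between these samples, which may be technical.

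YAP is a coactivator that enters the nucleus and works with TEAD factors when the Hippo kinases LATS1 and LATS2 do not phosphorylate it. Ccn1, Ccn2 and Ankrd1 are its commonly used target genes. In mouse liver many genes for pheromone carriers, steroid and drug metabolism also differ by sex under the pulsatile or continuous pattern of growth hormone, which acts through STAT5, and several of them differ among inbred strains.

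The libraries held 9522508 to 15587774 counts, so that 1 count was worth 0.0706 to 0.119 CPM (counts scaled to library size, with TMM factors). The summed level of 10 hepatocyte-defining mRNAs was 77310 to 92922 CPM in ApoYap ctrl and 88644 to 96847 CPM in BL/6 ctrl, both on the unscaled CPM of the whole table. Mitochondrially encoded transcripts took 21.5% to 24.8% of counts in ApoYap ctrl and 22.6% to 26.7% in BL/6 ctrl. Ddx3y, a gene of the Y chromosome, lay between 80.7 and 104 CPM in all 12 untreated libraries. Xist, the RNA of the inactive X chromosome, had at most 5 counts in any of them. By these 2 genes, all 12 untreated libraries read as male.

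Few genes differed between the carrier and BL/6. At an adjusted p under 0.05, 19 genes were higher and 38 lower in ApoYap ctrl, together 57 genes or 0.439% of those tested (0.146% higher and 0.293% lower). The log2 fold change was within a fold of 1.5 for 85.3% of all genes, with a median of -0.00185. At an unadjusted p under 0.05 there were 975 genes, or 7.52% (3.58% higher and 3.94% lower). Of the called genes, 14 higher and 26 lower ones differed by at least a fold of 2. The libraries of ApoYap ctrl and BL/6 ctrl did not overlap for 56 of the 57, against 7.05% of all genes tested. The 4 ApoYap ctrl libraries lay outside the range of all 8 other untreated libraries for 42 of the 57 (13 higher and 29 lower), against 2.85% of all genes. The calls were made from the same ApoYap ctrl and BL/6 ctrl libraries. A lack of overlap therefore largely follows from being called and adds no support.

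The number of called genes depended on the fit. The fit reported here uses all 25 libraries of the series to estimate the spread, and it called fewer genes than DESeq2, limma voom or the fits on the 8 compared or the 12 untreated libraries. DESeq2 called 41 higher and 69 lower, limma voom with sample quality weights 66 and 103, edgeR on the 12 untreated libraries 36 and 63, and edgeR on the 8 libraries alone 70 and 125. Of the 195 genes called from the 8 libraries alone, 50 were among the 57. With total counts alone as scaling the split was 30 higher to 36 lower, in place of 19 to 38. Leaving out 1 library gave 10 to 14 higher and 22 to 36 lower genes. Of the 57 genes, 29 stayed called in each of these 8 fits and 28 were lost in at least 1, and the direction of the 57 was the same under the settings that gave a value.

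**Figure D1:**
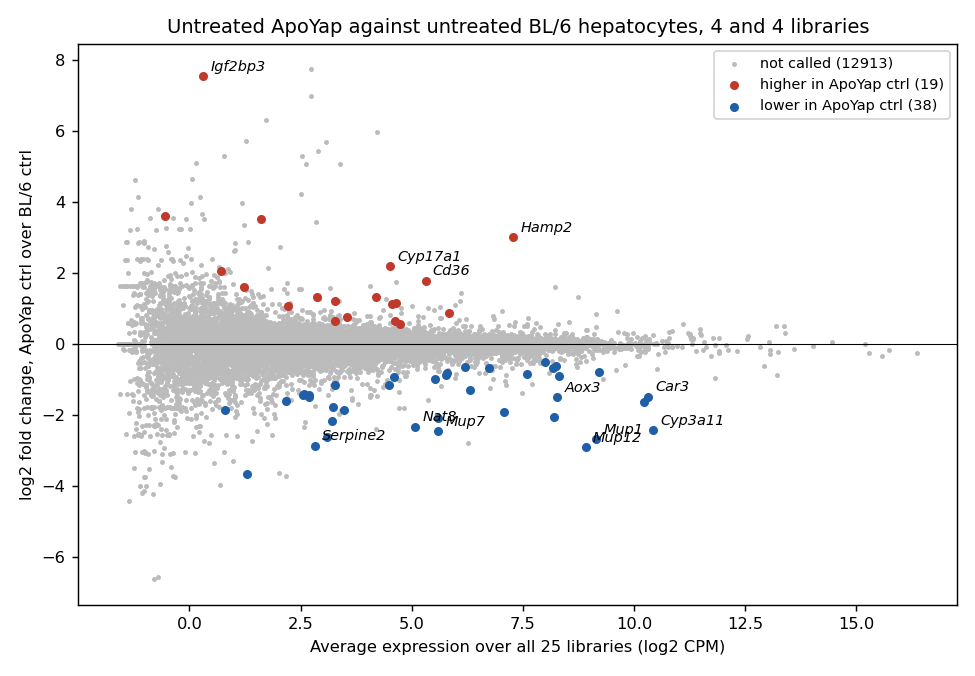
Log2 fold change of ApoYap ctrl over BL/6 ctrl (vertical axis) against the average log2 CPM over all 25 libraries (horizontal axis), 1 point per gene, with 19 genes called higher in red and 38 called lower in blue. Most points lie near 0, and some genes with larger fold changes than many called ones are grey because their adjusted p was not under 0.05.

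**Figure D2:**
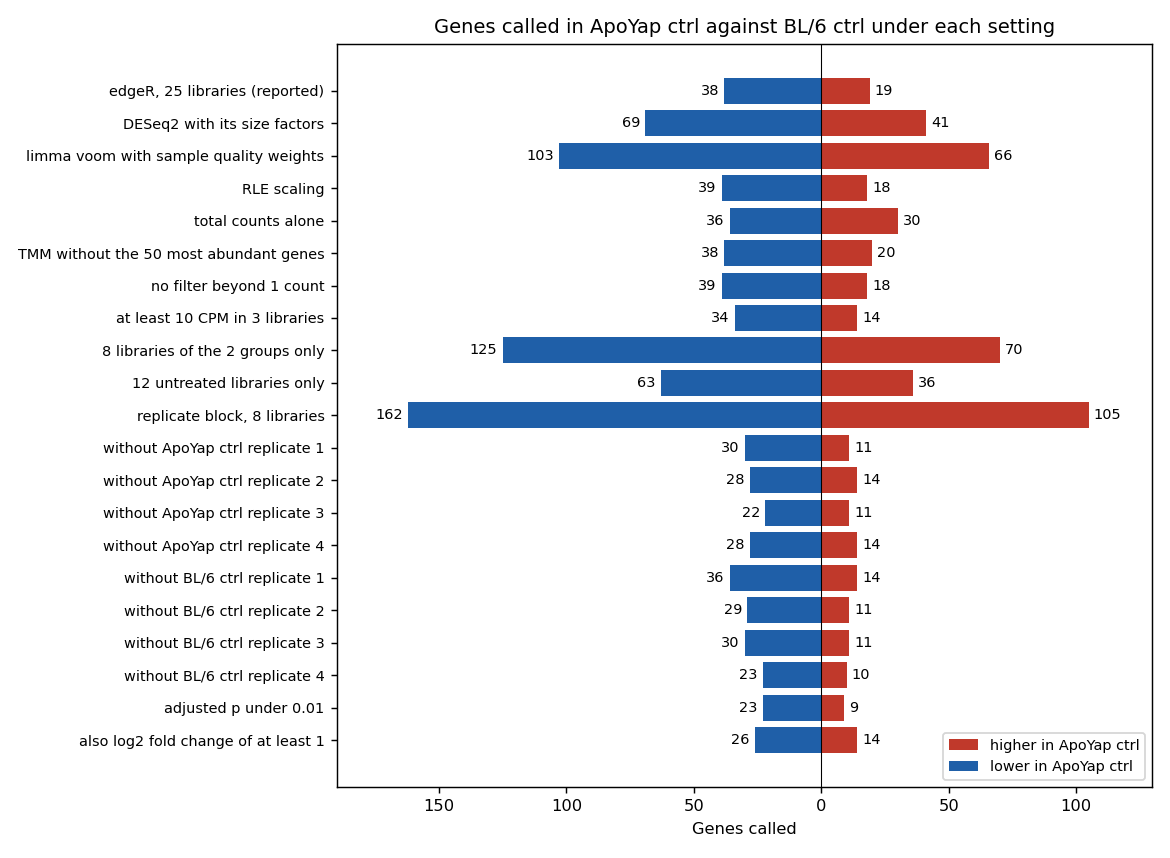
Number of genes called higher (red, to the right) and lower (blue, to the left) in ApoYap ctrl against BL/6 ctrl under each setting. The reported fit called 19 and 38, and the fits on 8 libraries called 70 and 125 without and 105 and 162 with the replicate number as a block.

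The gene with the largest rise among well-expressed genes was Hamp2, which encodes a second hepcidin peptide and is known as a female-biased liver transcript. Its gene lies on chromosome 7 at 30922372 to 30924681 on the minus strand (GRCm38, GENCODE M21). The RefSeq start used for its window below lies downstream of the start of that span, so the window falls inside the span. Its promoter window is shown with that of Mup7, a lower gene described further on, each 300 bases around the RefSeq start (GRCm38.p6), as an example of a called gene in each direction whose window holds a motif searched. Capitals mark the motif match: the STAT5 type motif TTCNNNGAA in Hamp2 (chr7:30924132-30924431, minus strand) and the TEAD type motif GGAATG, found on the other strand, in Mup7 (chr4:60070426-60070725, minus strand).
Hamp2: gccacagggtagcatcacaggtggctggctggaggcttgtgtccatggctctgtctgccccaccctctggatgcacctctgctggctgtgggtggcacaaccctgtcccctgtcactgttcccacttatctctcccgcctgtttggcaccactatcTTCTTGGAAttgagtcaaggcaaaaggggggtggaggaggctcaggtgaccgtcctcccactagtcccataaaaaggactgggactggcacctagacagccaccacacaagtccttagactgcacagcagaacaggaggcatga
Mup7: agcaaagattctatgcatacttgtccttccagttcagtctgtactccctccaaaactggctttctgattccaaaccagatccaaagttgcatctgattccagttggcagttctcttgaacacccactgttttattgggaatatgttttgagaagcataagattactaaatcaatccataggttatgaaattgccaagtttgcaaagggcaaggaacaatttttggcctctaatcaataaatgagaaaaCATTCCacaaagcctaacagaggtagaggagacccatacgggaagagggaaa
In all, 10 motifs were searched on both strands, and the motifs and windows shown were chosen after the matches had been seen. TTCNNNGAA occurs in 8.3% of all 32851 windows and for 8.44% of the 9999 tested genes with a window. Among called genes with a window it occurs for 2 of 16 higher genes (Asah2 and Hamp2) and 2 of 26 lower ones (Akr1c19 and Nox4). GGAATG occurs in 14.7% of all windows and for 14.5% of those tested genes. Among called genes it occurs for 1 of 16 higher (P3h1) and 2 of 26 lower ones (Mup7 and Zap70). The other motifs are given with their share of those tested genes. TGACNNNGC (antioxidant response element, 16.8%) occurs for 3 of 16 higher and 8 of 26 lower genes. CAAAGTCCA (HNF4A, 0.64%) occurs for Cyp3a11 and Nat8, TTCCTAGAA (BCL6, 0.45%) for Nox4 and the HNF1 motif (0.09%) for Slc10a2. For 4 motifs, among them the PPAR response element, direct repeat 4 and CEBP motifs, no called gene had a match. A match is a description of letters, not of binding. TTCCTAGAA is also a case of TTCNNNGAA.

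Hamp2 stood at 290, 505, 374 and 776 CPM in ApoYap ctrl 1 to 4 and at 93.1, 39.2, 60.4 and 48.7 CPM in BL/6 ctrl. All carriers were above all BL/6 libraries and also above the flox libraries, which ran from 31.2 to 160 CPM. The log2 fold change was 3.01 ± 0.53 (SE; adjusted p = 0.0078). The call was lost in the fit on the 12 untreated libraries.

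Cyp17a1 encodes the steroid 17-alpha-hydroxylase and is likewise female-biased in mouse liver (chromosome 19, 46667165 to 46673172, minus strand). Its levels were 46.8, 68.7, 37.9 and 74.7 CPM in ApoYap ctrl and 14.6, 14.6, 7.54 and 13.3 CPM in BL/6 ctrl. The carriers were higher without overlap, but they did overlap with the flox libraries (19.6 to 40.4 CPM). The difference was 2.18 ± 0.32 on the log2 scale (SE; adjusted p = 0.00116).

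Cd36, the fatty acid translocase at the cell surface, had the smallest p of the comparison (chromosome 5, 17781690 to 17888801, minus strand). It measured 24.9, 33.5, 35.0 and 38.4 CPM in ApoYap ctrl and 11.9, 7.16, 10.6 and 8.45 CPM in BL/6 ctrl. Every carrier library was also above the flox libraries, which lay between 13.5 and 19 CPM. The log2 fold change was 1.78 ± 0.19 (SE; adjusted p = 1.04e-05), and the call held under the other settings run.

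Plaat3, a phospholipase and acyltransferase, was at 31.5 ± 2.34 CPM (SD, n = 4) against 14.5 ± 2.41 CPM. Ide, the insulin-degrading enzyme, was at 88.8 ± 6.04 against 48.3 ± 10.8 CPM. Both kept their call in all fits that left out 1 library (adjusted p up to 0.00773 and 0.0218). Ide was on a list of genes known for copy or expression variants among inbred mouse strains (median 0.034). Of its 33 tested members 1 was called higher and 1 lower, beside 0.146% and 0.293% of all genes.

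Other higher genes were less stable. Pak1, a kinase downstream of Rac and Cdc42, had a log2 fold change of 1.33 ± 0.29, Nucb2, the precursor of nesfatin, 1.32 ± 0.27, Asah2, a neutral ceramidase, 0.76 ± 0.16, and Vnn3, a pantetheinase family member, 0.66 ± 0.14 (SE). Each of these 4 lost its call in 6 of the 8 fits without 1 library, with adjusted p up to 0.13, 0.0972, 0.13 and 0.0916. Tcim (1.16 ± 0.22) and the mannosyltransferase gene Alg12 (1.08 ± 0.21) were lost in 3 of 8, with adjusted p up to 0.0613 and 0.0605. The calls of Csrp1, a LIM domain protein gene (1.22 ± 0.28), and P3h1, a prolyl hydroxylase of collagen (0.64 ± 0.15), were lost in all 8, with adjusted p up to 0.187 and 0.19. Tcim was also lost with the 8 libraries alone, Nucb2 and P3h1 without the filter, and Csrp1 with RLE scaling or the filter of 10 CPM in 3 libraries.

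Igf2bp3, an RNA-binding protein of fetal tissue, had 0 counts in all 4 BL/6 ctrl libraries. In ApoYap ctrl it was low but present, at 2.47, 2.01, 1.66 and 1.5 CPM, and in the flox libraries it ran from 0 to 0.887 CPM. Set against a floor of 3 counts over the BL/6 group, it was at least 25.3-fold higher in ApoYap ctrl (adjusted p = 0.00281). Pygo1, a cofactor of Wnt signalling, ran from 1.25 to 2.21 CPM against 0 to 0.225 CPM. Igha, the constant chain of immunoglobulin A, had 2 counts in BL/6 ctrl. Its scaled ratio was 13.5 with an exact binomial 95% interval of 3.44 to 116 that covers counting error only. Igha was higher still in the flox libraries (1.70 to 4.17 CPM), and its call was lost in 7 of the 8 fits without 1 library.

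**Figure D3:**
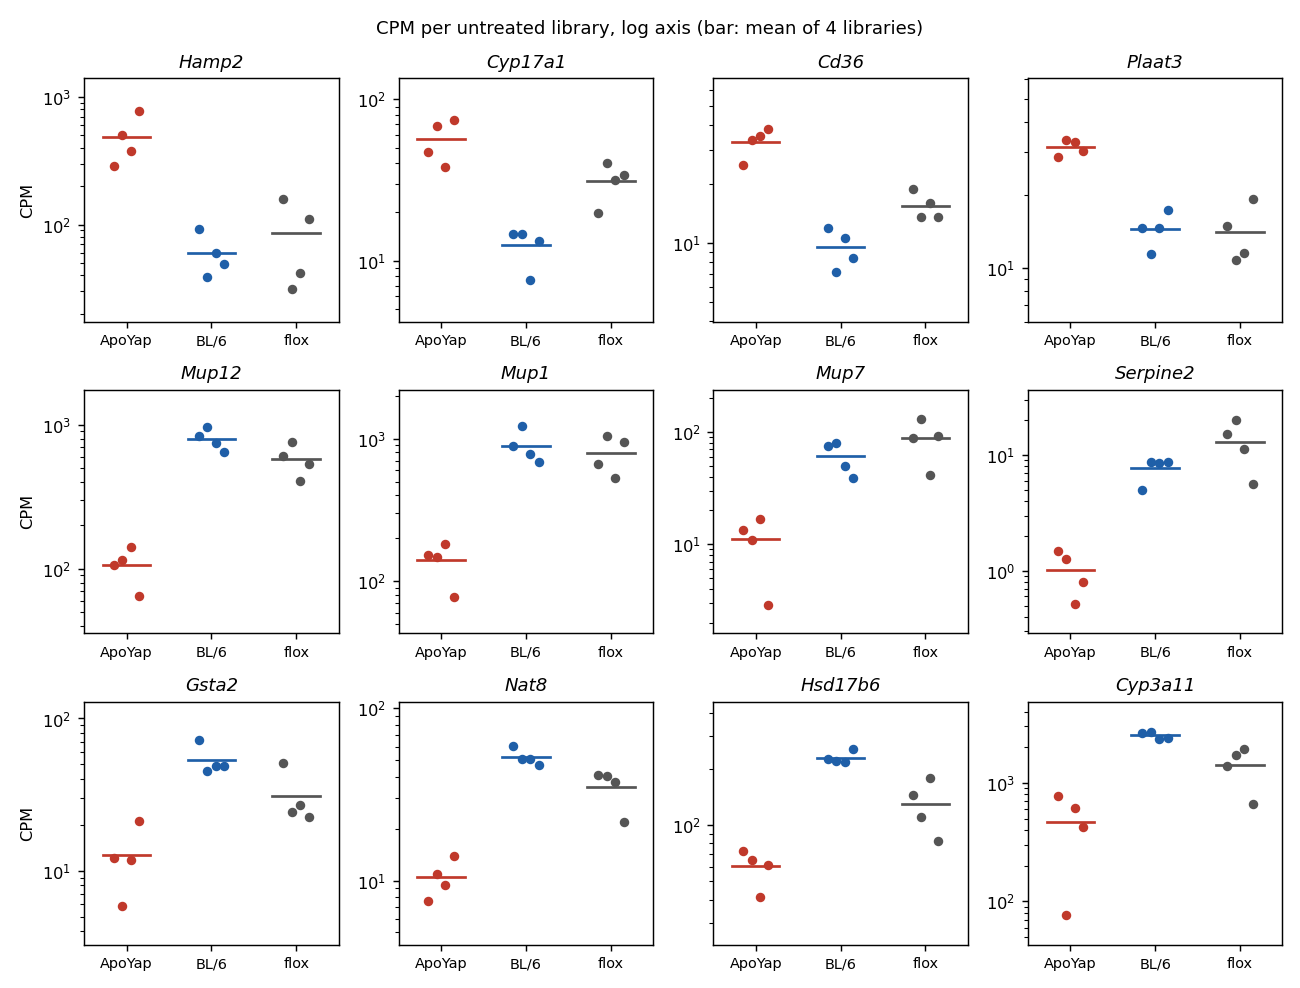
CPM on a logarithmic axis in each untreated library for 4 genes called higher (top row) and 8 called lower in ApoYap ctrl against BL/6 ctrl; points are libraries, bars the mean of 4, and flox stands for Lats1/2 flox ctrl. Mup12 spans 64.0 to 141 CPM in the carriers and 647 to 966 CPM in BL/6, and Cyp3a11 has 1 low carrier library at 77.5 CPM.

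Among the lower genes were several major urinary proteins, lipocalins that male mouse liver secretes to carry pheromones. Of 18 members tested, 4 fell (Mup12, Mup1, Mup7 and Mup20) and none rose, beside 0.293% of all genes called lower. The median log2 fold change of the list was -1.01, with 14 of 18 members below 0 beside 50.3% of all genes. DESeq2 called 7 lower and voom 8.

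Mup12 measured 105, 114, 141 and 64.0 CPM in ApoYap ctrl and 830, 966, 748 and 647 CPM in BL/6 ctrl. All 4 carriers were below all 8 other untreated libraries. The log2 fold change was -2.91 ± 0.36 (SE; adjusted p = 0.000238). Mup1 was at 153, 147, 183 and 77.4 CPM against 886, 1221, 785 and 687 CPM, again without overlap (log2 fold change -2.68 ± 0.37, adjusted p = 0.000716).

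Mup7, whose promoter window is printed above, was at 13.3, 11, 16.9 and 2.91 CPM against 75.0, 79.4, 49.7 and 39.0 CPM (log2 fold change -2.46 ± 0.40, adjusted p = 0.00283). ApoYap ctrl 4 was the lowest library for these 3 genes. The Mup7 call was lost with the 8 libraries alone and with the 12 untreated libraries. Mup20, which encodes darcin, was at 707 ± 246 against 2189.6 ± 504 CPM (SD, n = 4; adjusted p = 0.0232), and its call was lost in 4 of 8 fits without 1 library (adjusted p up to 0.0988), without the filter and with the 8 libraries alone.

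Not every member was lower. Mup3 was at -0.62 (adjusted p = 0.496) and Mup18 at -0.03 (adjusted p = 0.995) on the log2 scale, and Mup2 at 0.36 (adjusted p = 0.852). The Mup genes are near-identical copies in a cluster on chromosome 4, and how reads matching several of them were counted is not given in the sources used here; values of single members are uncertain. The 5 Mb window from 60 to 65 Mb of chromosome 4 held 5 called genes of 43 tested, beside 0.439% of all genes. All of them were Mup genes or the pseudogene Mup-ps20.

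Male-biased liver genes, a list that includes Mup1, Mup7 and Mup20, had these 3 members called lower and none higher of 24 tested. Of all genes, 0.293% were called lower. The list median was -0.59, and 22 of 24 were below 0, beside 50.3% of all genes. At an unadjusted p under 0.05, 11 were lower and none higher, beside 3.94% and 3.58% of all genes. DESeq2 called 5 and voom 9 lower. Obp2a, an odorant-binding lipocalin, was at -1.73 ± 0.44 (adjusted p = 0.108) and did not pass.

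Of 27 female-biased genes listed, 14 were tested. Hamp2 and Cyp17a1 were called higher and none lower, beside 0.146% and 0.293% of all genes, with a list median of 0.44. Above 0 were 10 members, beside 49.4% of all genes. At an unadjusted p under 0.05, 3 were higher and 1 lower, beside 3.58% and 3.94% of all genes. Against flox the list median was -0.17. Rtn4 was at 0.44 ± 0.13 (adjusted p = 0.197). Without ApoYap ctrl 4 the list median was 0.16. In the list of growth hormone signalling and targets 3 of 19 fell (Mup1, Mup20 and Igfbp2) and none rose. The list median was -0.14, and 0.293% of all genes were called lower. Igfbp2, an IGF-binding protein, was at 141 ± 8.98 against 255 ± 15.1 CPM (SD, n = 4; adjusted p = 0.0176), a call lost in 5 of 8 fits without 1 library (adjusted p up to 0.0833). Bcl6, a repressor of female-biased genes, varied from 2.41 to 28 CPM in ApoYap ctrl and 13.5 to 54.8 CPM in BL/6 ctrl and was not called (-1.81 ± 0.75, adjusted p = 0.551).

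Steroid and xenobiotic enzymes also had members among the lower genes. Hsd17b6, a steroid dehydrogenase, measured 73.1, 65.5, 41.2 and 61.4 CPM in ApoYap ctrl and 227, 220, 218 and 255 CPM in BL/6 ctrl. The flox libraries lay between the carriers and BL/6, at 82.8 to 180 CPM, without overlap. On the log2 scale Hsd17b6 differed by -1.93 ± 0.27 (SE; adjusted p = 0.000758).

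Cyp3a11, a major drug-metabolising P450, was at 773, 77.5, 617 and 424 CPM against 2664, 2705, 2355 and 2419 CPM. ApoYap ctrl 2 was far below the other carriers. Its log2 fold change was -2.42 ± 0.52 (adjusted p = 0.0419), and the call was lost in 6 of the 8 fits without 1 library (adjusted p up to 0.132), under total counts alone, without the filter, and with the 8 or 12 libraries alone. It was the only call among 38 P450 and xenobiotic genes tested (median -0.15), beside 0.293% of all genes called lower. Cyp2c23, an arachidonic acid epoxygenase outside that list, fell from 425 ± 46.8 to 226 ± 13.2 CPM (SD, n = 4, adjusted p = 0.00283).

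Of 42 glutathione and conjugation enzymes, Gsta2, Gsta4 and Gclc were called lower and none higher (median -0.18), beside 0.293% of all genes lower. Gsta2, an alpha-class glutathione transferase, was at 12.1, 5.87, 11.7 and 21.3 CPM against 71.7, 45.5, 48.7 and 48.9 CPM. The carriers were below BL/6 without overlap, and the log2 fold change was -2.09 ± 0.34 (adjusted p = 0.00281), a call lost with the 8 libraries alone. Gsta4 was at 31.8 ± 3.98 against 63.4 ± 5.9 CPM (adjusted p = 0.00281). Gclc, the catalytic subunit of the first enzyme of glutathione synthesis, was at 237 ± 35.8 against 365 ± 32.9 CPM (SD, n = 4; adjusted p = 0.0341), lost in 6 of 8 fits without 1 library (adjusted p up to 0.191) and under total counts alone. These 3 genes lie between 75 and 80 Mb of chromosome 9, where 3 of 23 genes tested were called, beside 0.439% of all genes.

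Aox1 and Aox3 encode aldehyde oxidases and are neighbours on chromosome 1, between 55 and 60 Mb. Aox3 was at 144, 181, 162 and 147 CPM against 367, 539, 430 and 458 CPM (log2 fold change -1.50 ± 0.17, adjusted p = 1.55e-05). The carriers sat close together and below all 8 other untreated libraries. Aox1 was at 12.4 ± 1.73 against 27.5 ± 6.64 CPM (SD, n = 4; adjusted p = 0.00161). Among 403 windows of 5 Mb with at least 10 genes tested, 4 held 2 or more called genes, 38 held 1 and 361 held none. The fourth window, from 70 to 75 Mb of chromosome 9, held Fam81a and Pygo1.

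Nat8, an acetyltransferase that forms mercapturates, was at 7.63, 10.9, 9.45 and 13.9 CPM against 60.9, 51.0, 50.9 and 47.2 CPM. No carrier library reached the lowest of the other untreated ones, 21.9 CPM. Nat8 had a log2 fold change of -2.33 ± 0.25 (adjusted p = 1.55e-05). Ces1g, a carboxylesterase, was at 35.9 ± 7.56 against 88.9 ± 8.91 CPM (SD, n = 4; adjusted p = 0.000283). Car3, carbonic anhydrase 3, was at 662, 716, 655 and 693 CPM against 1724, 1857, 2092 and 1947 CPM, with little spread within groups (log2 fold change -1.48 ± 0.23, adjusted p = 0.00116). Ugdh, which makes UDP-glucuronate, was at 58.4 ± 3.87 against 92.1 ± 6.5 CPM (adjusted p = 0.00474).

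Bile acid genes had 1 call among 29, beside 0.439% of all genes called, with a median of -0.10. Abcb11, the bile salt export pump, was at 234, 247, 198 and 227 CPM against 333, 332, 287 and 327 CPM. The groups did not overlap, and the difference was small (-0.50 ± 0.11, adjusted p = 0.0226). It was lost in 6 of 8 fits without 1 library (adjusted p up to 0.182). Slc10a2, the apical bile acid transporter, which was not on that list, was at 2.40, 2.68, 2.39 and 0.401 CPM against 11.5, 9.07, 7.42 and 8.11 CPM (-2.17 ± 0.36, adjusted p = 0.00238). Cyp7a1, which controls the rate of the classic bile acid pathway, ran from 8.41 to 59.8 CPM in ApoYap ctrl and 25.8 to 55.0 CPM in BL/6 ctrl and was not called (adjusted p = 0.932). Cyp7b1, of the alternative pathway, was at -1.37 ± 0.38 (adjusted p = 0.175).

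Among lower genes of other roles, Serpine2, a protease inhibitor, was at 1.48, 1.26, 0.519 and 0.802 CPM against 5.03, 8.71, 8.48 and 8.79 CPM. The carriers stood below all 8 other untreated libraries (log2 fold change -2.86 ± 0.51, adjusted p = 0.00575). Csad, of taurine synthesis, was at 105 ± 29.1 against 436 ± 134 CPM, and Enho, which encodes adropin, at 4.14 ± 1.14 against 15.1 ± 4.94 CPM (SD, n = 4; adjusted p = 0.00459 and 0.000716). Gpc1, a cell-surface proteoglycan, was at 4.11 ± 1.42 against 14.2 ± 1.35 CPM (adjusted p = 0.000716).

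YAP target genes did not pass the test. Of 21 YAP/TAZ target genes tested, edgeR called none in either direction, none had an unadjusted p under 0.05, and DESeq2 and voom called none. Their median log2 fold change was -0.23, and 16 of 21 were below 0, beside 50.3% of all genes. Mouse Yap1 was at 41.0, 41.9, 41.3 and 46.9 CPM in ApoYap ctrl and 44.1, 46.7, 44.6 and 43.6 CPM in BL/6 ctrl. The groups overlapped, with a log2 fold change of -0.06 and a 95% interval of -0.29 to 0.16 (adjusted p = 0.942). No source used here gives the 3′ end of the human transgene, and mouse Yap1 counts do not measure it.

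Ccn1, a matricellular protein, was at 9.04, 11.6, 10.4 and 7.12 CPM against 11.3, 7.64, 13.2 and 12.1 CPM, and the groups overlapped (-0.21, 95% interval -0.83 to 0.41). Ccn2 was low in all libraries, at 1.62, 1.34, 2.6 and 1.20 CPM against 1.89, 0.477, 0.353 and 4.73 CPM (-0.17, interval -1.34 to 0.99). Ankrd1 did not exceed 0.789 CPM in either group (-0.07, interval -1.73 to 1.60). The interval of Ankrd1 spans more than a fold of 2 either way and that of Ccn2 more than a fold of 2 downward. Changes of that size were therefore not excluded. The sign of both Ankrd1 and Ccn2 turned in some settings.

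Of 30 Hippo pathway components edgeR called none, and the median was -0.07, or 0.00586 with total counts alone. At an unadjusted p under 0.05, 2 were higher and 2 lower, beside 3.58% and 3.94% of all genes. DESeq2 called 1 lower, and voom and the 8 libraries alone 2 lower. Wwtr1, which encodes the YAP paralog TAZ, was at 19 ± 1.58 against 13 ± 3.29 CPM (SD, n = 4; adjusted p = 0.321). Lats1 was at 12.9 ± 1.34 against 11.3 ± 1.68 CPM and Lats2 at 8.23 ± 0.52 against 9.82 ± 0.879 CPM (adjusted p = 0.9 and 0.857). Map4k4, a kinase upstream of LATS, was at -0.90 ± 0.24 and Taok3, another, at -0.51 ± 0.16 (adjusted p = 0.132 and 0.263).

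Of 11 fetal liver and progenitor genes edgeR, DESeq2 and voom called none (median -0.28). The 8 libraries alone called 3 lower. At an unadjusted p under 0.05, 1 was lower, beside 3.94% of all genes. That gene was Sox9, a factor of biliary and progenitor cells, at 33.5, 34.5, 31.7 and 45.8 CPM against 66.0, 61.8, 49.0 and 69.7 CPM. Its groups did not overlap, yet it did not pass (-0.76 ± 0.30, adjusted p = 0.512). Afp, fetal albumin, was at 1.36 ± 0.447 against 0.937 ± 0.525 CPM (SD, n = 4; adjusted p = 0.852). Alb was at -0.35 ± 0.15 (adjusted p = 0.551) and Apoe, whose name the rtTA transgene carries, at 0.07 ± 0.14 (adjusted p = 0.957).

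**Figure D4:**
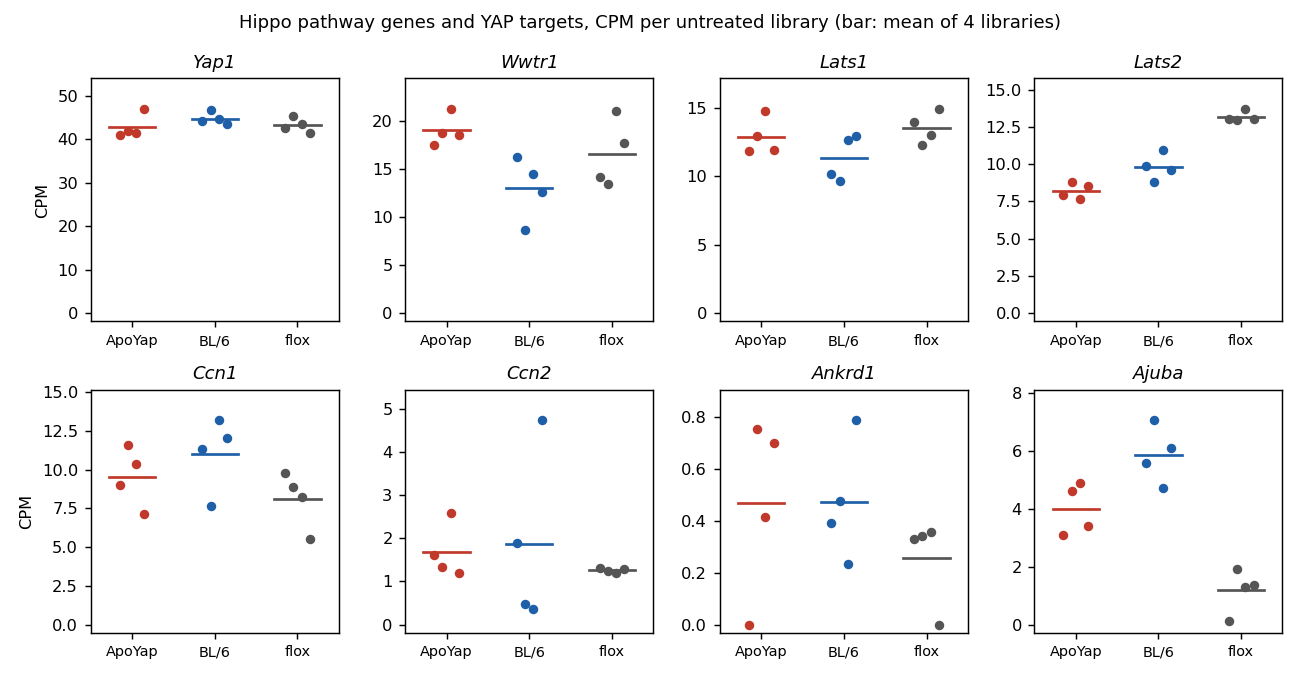
CPM in each untreated library for 4 Hippo pathway genes (top) and 4 YAP target genes (bottom); points are libraries, bars the mean of 4, and flox stands for Lats1/2 flox ctrl. Yap1 lies between 41.0 and 46.9 CPM in ApoYap ctrl and BL/6 ctrl, and none of the 8 genes was called between them.

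Further lists had no called gene in edgeR. Interferon response genes had 40 of 44 members above 0, beside 49.4% of all genes (median 0.36). At an unadjusted p under 0.05, 6 were higher and none lower, beside 3.58% and 3.94% of all genes. DESeq2 and voom called none, while the 8 libraries alone gave 2 higher. Usp18 was at 1.26 ± 0.39 (adjusted p = 0.276). Cholesterol synthesis genes had 4 of 26 higher at that unadjusted p and none lower (median 0.12), and DESeq2 and voom each called 1 higher. Immediate early and dissociation genes had 29 of 30 members below 0, beside 50.3% of all genes (median -0.50). At that unadjusted p, 3 were lower, and DESeq2 and voom called none.

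Liver zonation lists had 1 call each: Cyp3a11 of 25 pericentral genes (median -0.25) and Hsd17b6 of 25 periportal genes (median -0.17). Of the periportal genes 21 were below 0, beside 50.3% of all genes. Csad was the 1 call among 50 amino acid breakdown and urea cycle genes (median -0.08), and Hamp2 the 1 call among 27 iron and haem genes (median -0.09). Beside these calls, 0.146% of all genes were called higher and 0.293% lower.

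Markers of other liver cells were present at low levels in both groups, and their part in the results was not tested. In bulk samples, fewer cells of a type and less RNA per cell cannot be told apart. For comparison with the marker lists, 50.3% of all genes tested were below 0. Marker sums here are on the unscaled CPM of the whole table, and the log2 fold changes are scaled by TMM. The summed level of 21 sinusoidal endothelial markers was 196 to 404 CPM in ApoYap ctrl and 253 to 495 CPM in BL/6 ctrl. Of these markers 19 of 21 were below 0, with a median of -0.48. Kupffer cell and macrophage markers summed to 146 to 310 and 192 to 367 CPM (20 of 21 below 0, median -0.25), and stellate cell and fibroblast markers to 74.4 to 170 and 79.0 to 193 CPM (17 of 19 below 0, median -0.41). Cholangiocyte markers summed to 58.7 to 72.6 and 74.6 to 104 CPM, with 4 of 5 tested below 0. Neutrophil markers were at most 2.14 CPM in sum and T, NK and B cell markers at most 4.96 CPM. Ly6g, Camp, Ltf, Cd3g, Cd3d, Trac, Cd8a, Klrb1c and Cd79a had no count in any of the 8 libraries. edgeR, DESeq2 and voom on all libraries called no marker in these 6 lists. The 8 libraries alone gave 1 cholangiocyte marker lower and 1 Kupffer cell marker each way. At an unadjusted p under 0.05 Sox9 and Slc40a1 were lower and Mpeg1 higher, beside 3.94% and 3.58% of all genes.

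**Figure D5:**
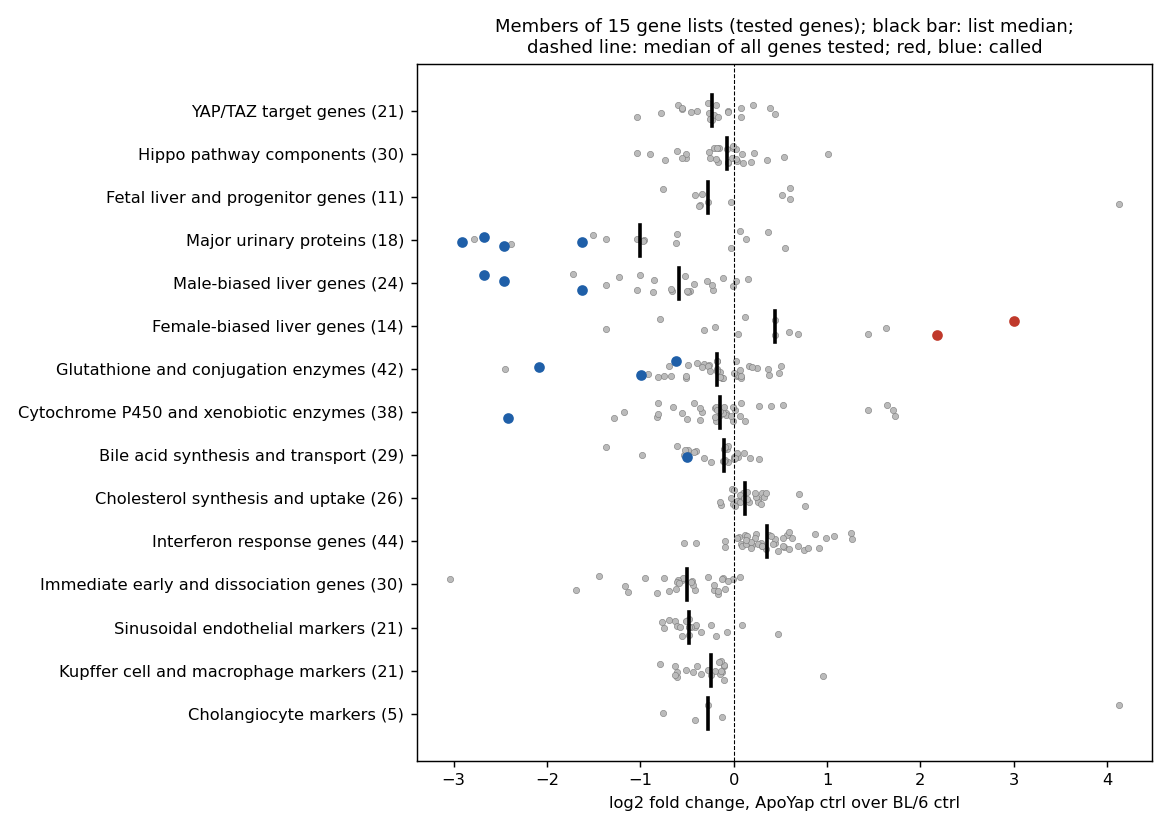
Log2 fold change of ApoYap ctrl over BL/6 ctrl for the tested members of 15 gene lists, 1 point per gene, with list medians as black bars, called genes in red or blue and the median of all genes as a dashed line. The medians run from -1.01 for the major urinary proteins to 0.44 for the female-biased genes.

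Against Lats1/2 flox ctrl, in the same fit, ApoYap ctrl had 355 genes higher and 801 lower, together 8.91% of those tested (2.74% higher and 6.18% lower). With total counts alone the split was 908 higher to 459 lower. Mitochondrially encoded transcripts took 27.8% to 31.6% of counts in flox and 21.5% to 24.8% in ApoYap ctrl. The TMM factors were 0.83 to 0.889 in flox and 0.909 to 0.979 in ApoYap ctrl. The part of these differences in the calls was not tested. This comparison shares the 4 ApoYap ctrl libraries with the first, so its values are set side by side and support nothing further. Mup12 was at -2.44 against flox and -2.91 against BL/6, Car3 at -1.47 and -1.48, Aox3 at -1.50 and -1.50, Hamp2 at 2.5 and 3.01, and Cd36 at 1.08 and 1.78. Cyp17a1 was at 0.86 against flox (adjusted p = 0.0832) and 2.18 against BL/6.

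The largest differences from flox under the naming rule were Pck2 (2.87), Hamp2 (2.5) and Osbp2 (2.45) among higher genes, and Moxd1 (-4.30), Serpine2 (-3.63) and Mup9 (-3.40) among lower genes. Pck2, the mitochondrial PEP carboxykinase, was at 4.10, 3.02, 2.49 and 4.11 CPM in ApoYap ctrl, 0.658, 0.341, 0.119 and 0.690 CPM in flox and 2.28, 2.03, 1.65 and 2.03 CPM in BL/6 ctrl. The carriers were above both references, and the difference from BL/6 did not pass (0.77 ± 0.31, adjusted p = 0.516). Moxd1 varied widely, from 2.02 to 20.8 CPM in flox and 2.03 to 19 CPM in BL/6 ctrl, with at most 1.87 CPM in ApoYap ctrl. Its call against flox (adjusted p = 0.0459) was lost in 5 of the 8 fits without 1 library (adjusted p up to 0.119), with voom (adjusted p = 0.0751), without the filter (adjusted p = 0.0827) and with the 8 libraries of ApoYap ctrl and flox alone (adjusted p = 0.0612). The call of Hamp2 against flox was also lost with those 8 libraries alone.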

How the data were processed

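RNA was sequenced at the 3′ ends of transcripts (QuantSeq 3′ mRNA-Seq FWD, per the labels' protocols). Per the submitters' processing notes, FastQC, cutadapt and STAR 2.6.1d were used, with the genome build mm10 (GRCm38). No source used here gives the counting tool, annotation or strand setting, which leaves overlapping, antisense and near-identical genes uncertain. The authors deposited whole-number counts per gene symbol and library, with no normalization.

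edgeR 4.0.16 under R 4.3.3 was run on these counts: filterByExpr (minimum count 10, total 15), TMM scaling, 1 mean per group over all 25 libraries in 7 groups, robust quasi-likelihood tests, Benjamini-Hochberg adjustment over all genes tested and a threshold of 0.05. The SE is the log2 fold change over the root of F. CPM are scaled by TMM unless called unscaled. Alternatives used DESeq2 1.42.0, limma 3.58.1 voom, other scalings, filters, thresholds and sample sets. The code was tested on simulated data.

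Positions came from GENCODE M21 and promoter windows from RefSeq, which had an entry for 42 of the 57 called genes. Replicate pairs differed beyond sampling noise (lowest chi-square per degree of freedom 7.69). Named genes were the 12 higher and 12 lower called genes with the largest fold change that did not overlap between groups and averaged a log2 CPM of 2 or more (3 each way against flox; predicted genes, pseudogenes and Y-linked genes skipped), up to 4 members of each of 44 lists, and a set of YAP pathway and liver genes. Igf2bp3, Pygo1, Igha, Car3, Aox1, Aox3, Ces1g, Ugdh, Cyp2c23, P3h1, Mup-ps20, Fam81a, Zap70, Nox4, Akr1c19, Adh4, Cacfd1, Gm47283, Mup2, Mup3, Mup18, Ddx3y and Xist fall outside or were added after their values were seen. The members and lists were chosen with earlier results of these data known.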

Additional observations from a re-analysis of the deposited data

Results flagged for a closer look

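In groups of 4 libraries, 10 of 174 groups examined had 1 library far from the other 3 by Dixon's test, and chance alone flags about 1 in 20. Low libraries were ApoYap ctrl 4 for Slc10a2 (0.401 CPM, others 2.39 to 2.68), BL/6 ctrl 1 for Serpine2 (5.03 CPM, others 8.48 to 8.79), ApoYap ctrl 1 for Adh4 (33.3 CPM, others 41.8 to 42.7) and for Cacfd1 (33.7 CPM, others 37.0 to 37.6), BL/6 ctrl 3 for Abcb11 (287 CPM, others 327 to 333), and BL/6 ctrl 2 for Taok3 (144 CPM, others 175 to 178). High libraries were BL/6 ctrl 1 for Gsta2 (71.7 CPM, others 45.5 to 48.9) and for Igha (0.157 CPM, others at 0), ApoYap ctrl 4 for Yap1 (46.9 CPM, others 41.0 to 41.9) and BL/6 ctrl 2 for Cyp7b1 (447 CPM, others 250 to 278).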

How the results depend on the processing

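Calls against BL/6 numbered 19 higher and 38 lower. They were 41 and 69 with DESeq2, 66 and 103 with voom, 30 higher with total counts alone, 70 and 125 with the 8 libraries alone, 36 and 63 with the 12 untreated libraries, and 9 and 23 at an adjusted p under 0.01. Leaving out 1 library gave 10 to 14 higher and 22 to 36 lower. Against flox, 355 higher and 801 lower became 710 higher with voom, 908 and 459 with total counts alone, 739 higher with the 12 untreated libraries, 102 and 353 at an adjusted p under 0.01, and 92 and 220 at a log2 fold change of at least 1. Leaving out 1 library gave 200 to 340 higher and 479 to 720 lower. The cause was not tested, except that a stricter threshold leaves fewer calls by construction. Total counts alone moved the median of all genes to 0.0698.

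The replicate numbers pair no animals in the labels. Same-numbered libraries of ApoYap ctrl and BL/6 ctrl deviated together with r of -0.105, 0.176, -0.0859 and 0.102, and only ApoYap ctrl 2 correlated best with its own number. With the replicate block on 8 libraries 105 genes were higher and 162 lower, 50 of the 57 among them, and Moxd1 against flox lost its call (adjusted p = 0.166).

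The sign turned for genes that were not called. Yap1 was at 0.00913 and Ankrd1 at 0.00191 with total counts alone. Ccn2 was at 0.42 with voom, 0.16 with the replicate block and 0.72 without BL/6 ctrl 4, with -0.49 to 0.72 over the fits without 1 library. Ankrd1 was at 0.42 without ApoYap ctrl 1 and 0.27 without BL/6 ctrl 4, with a range of -0.46 to 0.42. Tcim against flox was at -0.039 with voom, -0.0072 with the filter of 10 CPM in 3 libraries, -0.057 with the replicate block, -0.29 without ApoYap ctrl 1 and -0.07 without flox ctrl 3, with a range of -0.29 to 0.15. Of the 57 called genes, 26 were called under every setting with a value. At 0.0706 to 0.119 CPM per count, genes near 1 CPM rest on about 10 counts a library.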

Other observations

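The doxycycline-treated libraries of the same strains, 3 of ApoYap and 4 of BL/6, are not used in the comparison. They differ from it by doxycycline in both strains and by induction of YAP in the carrier, so strain and induction cannot be told apart in them. Markers of other cells differed too. Kupffer cell and macrophage markers summed to 15400 to 26962 unscaled CPM in ApoYap Dox and 129 to 400 in BL/6 Dox. Hepatocyte-defining mRNAs summed to 50132 to 69283 and 73969 to 92689 unscaled CPM. The part of cell composition in the values below was not tested. This look was added after the other results were known. Of the 38 genes lower in untreated carriers, 36 were also lower without overlap in ApoYap Dox against BL/6 Dox, and of the 19 higher genes 12 were higher. Over all genes tested, 30.3% differed without overlap in the direction of the untreated comparison and 33% in the opposite one. Mup12 was at 2.82, 1.67 and 0.82 CPM in ApoYap Dox and at 651, 764, 651 and 959.6 CPM in BL/6 Dox. Cd36, the gene with the smallest p, was at 117, 134 and 133 CPM against 4.37, 5.00, 9.34 and 5.57 CPM. Cyp17a1 went the other way from the untreated libraries, at 0.47, 0.95 and 1.30 CPM against 24.8, 20.4, 18 and 16.7 CPM. Cacfd1, Ide, Vnn3 and Gm47283 were the other 4 called genes that did so. Together these were 4 of the 19 higher genes and 1 of the 38 lower ones.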
